A study of Mus musculus with 14 samples.

Results

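Neurotrophins and their receptors, together with a few other growth factors of the hippocampus, were followed across 4 mouse genotypes. The 9 genes were taken by symbol from the deposited table of 55450 genes, and all 9 passed the filter on low values that left 18059 genes for testing. Bdnf and Ntf3 encode neurotrophins, while Igf1, Vegfa and Fgf2 encode growth factors of other families. Ntrk2, Ntrk3 and Ngfr encode neurotrophin receptors and Sort1 encodes a sorting receptor.

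Gper1 encodes GPR30, an estrogen receptor of the cell membrane, and the study asked what its loss in all cells, in astrocytes or in neurons does to the hippocampus. All mice were female, 10 weeks of age and on the C57BL/6J background. Each of the 14 libraries was taken as 1 mouse, since the RNA-Seq methods of the study do not say whether tissue was pooled. There were 3 WT mice without a mutation, 3 Δ3102 mice with a global knockout of GPR30, 4 AG-KO mice (floxed GPR30 with GFAP-Cre, an astrocyte promoter that can also drive Cre in neural stem cells) and 4 NG-KO mice (floxed GPR30 with NSE-Cre, a promoter of neurons). Floxed or Cre-only mice were not analysed here, so a difference between a conditional line and WT cannot be told apart from an effect of its Cre transgene or floxed allele, and the 3 comparisons with WT share the same WT mice. The labels do not say whether mice shared a litter. Gper1 was at 0.797 to 3.05 FPKM in WT mice and at 0.0124 to 0.145 in Δ3102 mice, without overlap. AG-KO mice (0.540 to 1.38) and NG-KO mice (0.975 to 1.41) overlapped WT mice in this whole-tissue RNA. FPKM is the number of fragments scaled to exon length and to the number of mapped reads, so it can be compared between genes of different length.

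Neurotrophins are small secreted proteins that are made as longer precursors and act on neurons that carry their receptors. BDNF signals through the receptor tyrosine kinase TrkB (Ntrk2) and NT-3 through TrkC (Ntrk3), while the p75 receptor (Ngfr) binds all neurotrophins and, with sortilin (Sort1), their precursors. In the hippocampus, BDNF is made mainly by excitatory neurons, its transcription follows neuronal activity through several promoters, and it is required for lasting changes of synaptic strength. TrkB exists in a full-length form, typical of neurons, and in a truncated form without the kinase, abundant in astrocytes, and gene-level values sum these forms.

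The promoters of these genes are shown first, because GPR30 can raise cAMP and the cAMP-responsive factor CREB binds TGACGTCA or its part TGACG. RefSeq (GRCm38.p6) held 15 promoter windows for 7 of the 9 genes, each running from 250 bases before to 50 bases after an annotated start. On either strand, the letters TGACGTCA were in 0 of the 15 windows, against 1.79% of the 32851 windows of all genes. TGACG, which also lies within TGACGTCA, was in 3 of the 15 windows (of 3 genes) and in 20.8% of all windows. The 3 windows follow in the direction of transcription, with TGACG or its reverse complement CGTCA in capitals.
Bdnf, chr2:109692186-109692485, plus strand: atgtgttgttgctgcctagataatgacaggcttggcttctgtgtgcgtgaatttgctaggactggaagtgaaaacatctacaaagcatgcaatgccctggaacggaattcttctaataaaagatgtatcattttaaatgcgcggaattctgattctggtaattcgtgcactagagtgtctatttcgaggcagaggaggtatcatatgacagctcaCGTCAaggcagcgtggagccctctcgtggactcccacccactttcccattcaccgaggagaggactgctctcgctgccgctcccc
Fgf2, chr3:37348403-37348702, plus strand: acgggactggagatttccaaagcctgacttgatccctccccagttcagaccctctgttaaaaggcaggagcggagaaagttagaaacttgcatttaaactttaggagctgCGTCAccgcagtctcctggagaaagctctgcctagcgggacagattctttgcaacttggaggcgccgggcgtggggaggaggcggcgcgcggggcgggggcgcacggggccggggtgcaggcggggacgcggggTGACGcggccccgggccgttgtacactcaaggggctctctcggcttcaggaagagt
Vegfa, chr17:46025114-46025413, minus strand: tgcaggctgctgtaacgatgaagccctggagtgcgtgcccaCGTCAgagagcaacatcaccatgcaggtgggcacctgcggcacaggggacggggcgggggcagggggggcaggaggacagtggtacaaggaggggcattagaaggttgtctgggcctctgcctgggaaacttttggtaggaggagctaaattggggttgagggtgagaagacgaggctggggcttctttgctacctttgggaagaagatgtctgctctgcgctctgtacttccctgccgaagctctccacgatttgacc
In the Bdnf window, 1 of 7 for this gene, the match began 35 bases before the start. The Fgf2 window held matches at 140 and 6 bases before the start, and the Vegfa window, at an internal start of the gene, held one 209 bases before it. A match describes the letters only, and binding of CREB was not measured in these libraries.

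The receptors Sort1 and Ntrk2 were the most abundant of the 9 genes, and Ngfr, Fgf2 and Igf1 the scarcest. Averaged over the 14 libraries, the levels were 91.6 ± 6.17 FPKM for Sort1, 28.0 ± 4.78 for Ntrk2, 10.8 ± 1.76 for Vegfa, 5.65 ± 0.340 for Ntrk3 and 3.61 ± 0.751 for Bdnf (SD, n = 14). Ntf3 followed at 1.98 ± 1.36, Ngfr at 0.572 ± 0.210, Fgf2 at 0.560 ± 0.516 and Igf1 at 0.444 ± 0.167. The ranges of the first 4 genes did not touch, whereas from Ntrk3 downward each gene overlapped the next, so the order of the lower genes is not separated by the spread between mice. Ntf5, the gene of the neurotrophin NT-4, which is outside this group, reached at most 0.227 FPKM in any library.

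**Figure D1:**
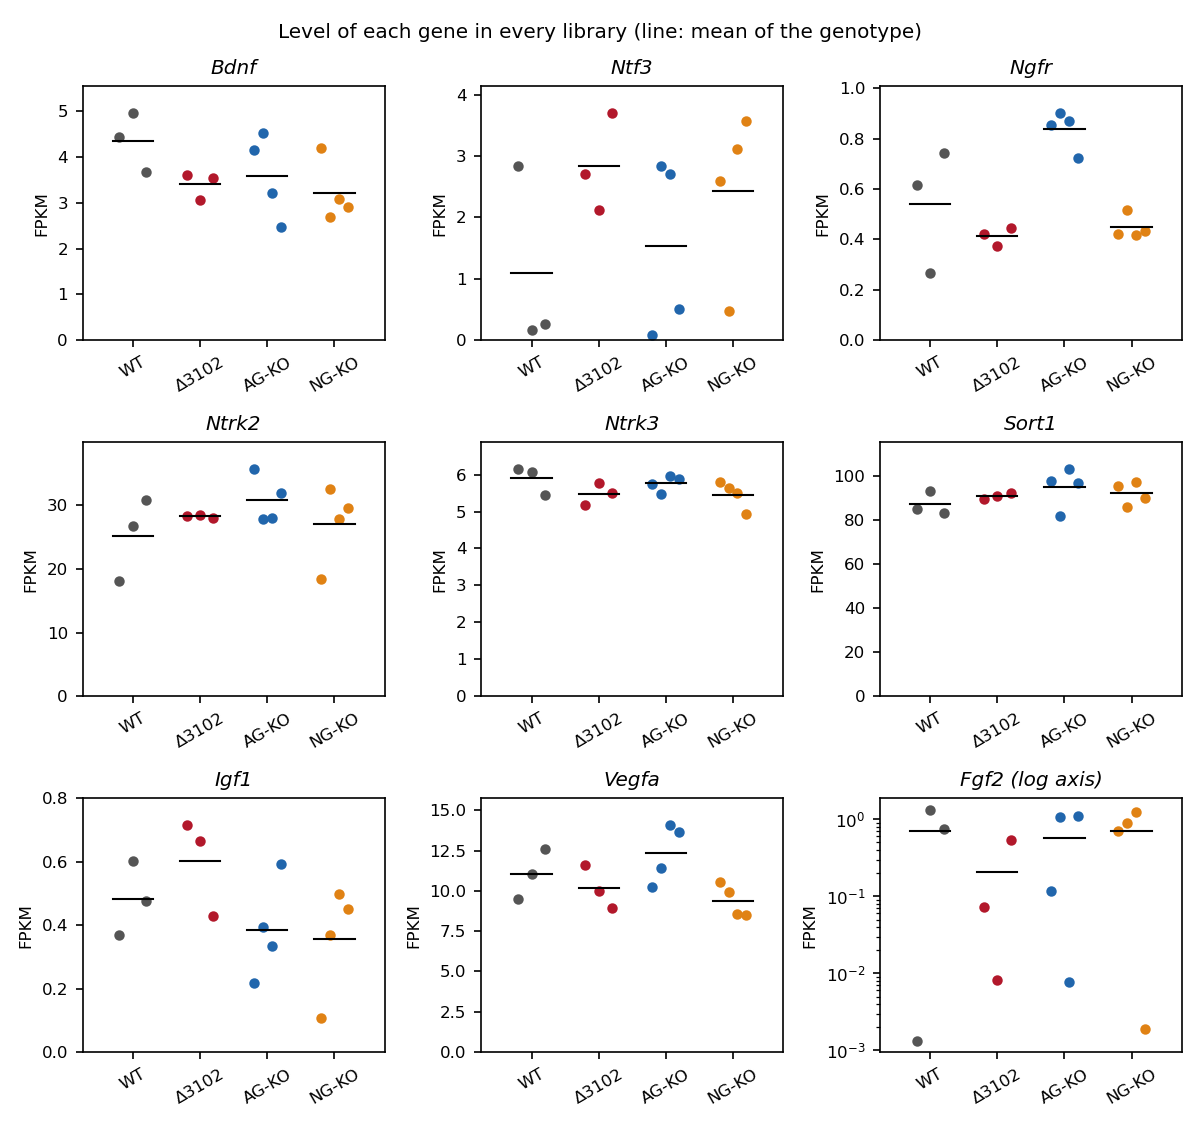
FPKM (vertical axes, linear except the log axis of Fgf2) of the 9 genes in each of the 14 libraries, by genotype, with a line at the mean of each genotype. Sort1 and Ntrk3 lie close together in all mice, Ntf3 and Fgf2 fall into high and low libraries within genotypes, and the 4 AG-KO values of Ngfr (0.723 to 0.902) all lie above the 4 NG-KO values (0.419 to 0.517).

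No gene of the group passed an adjusted p of 0.05 in any of 4 comparisons, by edgeR, DESeq2 or limma. By the unadjusted p of edgeR, 0 of 9 passed for each genotype against WT, while 2 of 9, Ngfr and Vegfa, passed between AG-KO and NG-KO mice. DESeq2 and limma gave 0 and 0 for Δ3102, 1 and 1 (Ngfr in both) for AG-KO, 0 and 0 for NG-KO mice against WT, and 2 and 2 between the conditional lines, where 4.98% and 4.69%, 15.4% and 15.4%, 9.93% and 9.71%, and 15% and 14.6% of all genes passed by these tools. Among all tested genes, an adjusted p under 0.05 was reached by 0.0111% for Δ3102 against WT, 0.0221% for AG-KO against WT, 0.072% for NG-KO against WT and 0.111% between the conditional lines. The shares at an unadjusted p under 0.05 were 4.45%, 14.4%, 9.16% and 14.1% in the same order. The median log2 fold change of the 9 genes was -0.10, 0.15, -0.10 and 0.14 in that order, against medians between -0.016 and -0.0037 over all tested genes.

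**Figure D2:**
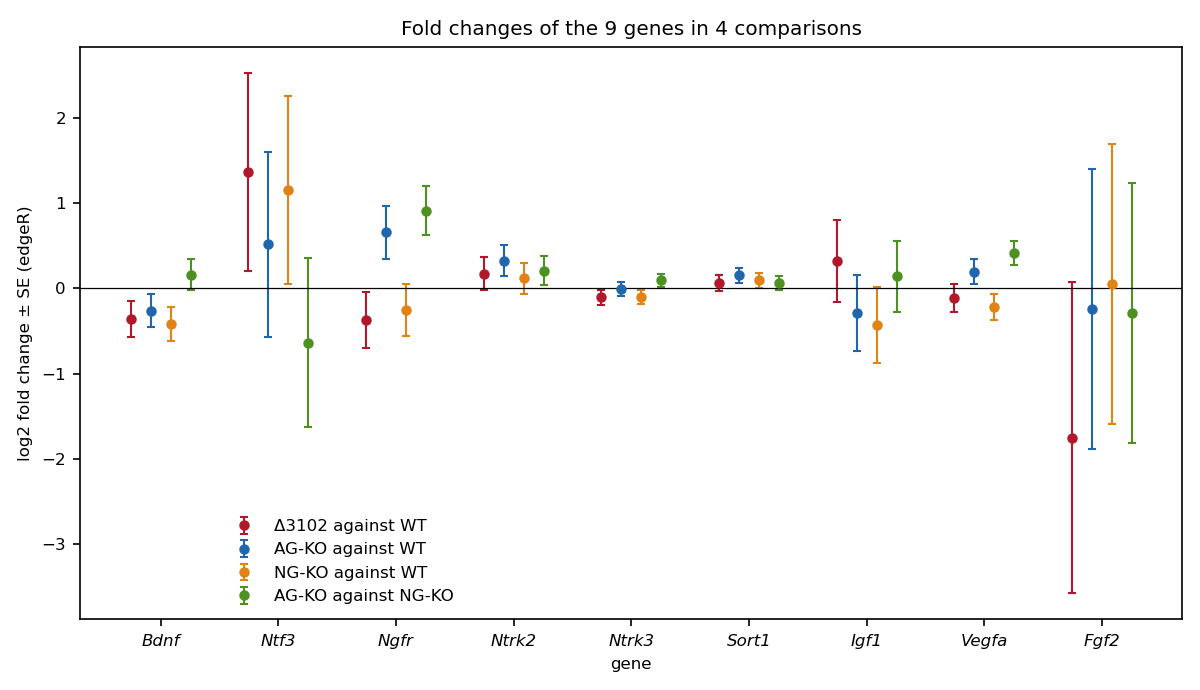
Log2 fold change (vertical axis) with its standard error from edgeR for each of the 9 genes (horizontal axis) in 4 comparisons, marked by colour. The bars of Sort1 and Ntrk3 are the shortest (standard errors of 0.077 to 0.092) and lie close to 0. The bars of Ntf3 and Fgf2 are the longest (standard errors of 0.99 to 1.83), and Ngfr and Vegfa lie above 0 in AG-KO against NG-KO mice.

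Bdnf (ENSMUSG00000048482, chromosome 2, 109674700 to 109727007, plus strand) was highest on average in WT mice. Its level was 4.44, 4.95 and 3.68 FPKM in the 3 WT mice and 3.60, 3.07 and 3.53 in the 3 Δ3102 mice. AG-KO mice had 4.14, 4.52, 3.21 and 2.46 FPKM, and NG-KO mice had 4.19, 2.70, 3.09 and 2.90. Every Δ3102 mouse was below every WT mouse, a separation that 11.5% of tested genes also showed, while the AG-KO and NG-KO mice overlapped WT. Fewer cells of a type and less RNA per cell cannot be told apart in such whole-tissue libraries. The log2 fold change of Bdnf was -0.36 ± 0.21 (SE) for Δ3102 mice (edgeR, unadjusted p = 0.117, Benjamini-Hochberg adjusted p above 0.99), -0.26 ± 0.20 for AG-KO mice (adjusted p = 0.572) and -0.42 ± 0.20 for NG-KO mice (unadjusted p = 0.0524, adjusted p = 0.550). The direction was the same under each of the 22 alternatives, from -0.47 to -0.25, from -0.38 to -0.11 and from -0.58 to -0.32 in these comparisons. For NG-KO mice the unadjusted p dropped below 0.05 in 4 of the alternatives, with the smallest, 0.00979, without NG-KO mouse 1, which had the highest level of its group.

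Granule cells of the dentate gyrus are a main site of Bdnf transcripts, and their markers differed between libraries. The summed level of 6 dentate markers was 48.2 to 69.4 FPKM in WT, 34.8 to 67.2 in Δ3102, 27.9 to 47.9 in AG-KO and 22.8 to 51.0 in NG-KO mice, with Prox1 from 4.13 to 11.5 FPKM over the 14 libraries and none of the markers at 0. WT mouse 2 had both the highest Bdnf and the highest marker sum. AG-KO mice 1 and 4 had similar sums, 28.3 and 27.9 FPKM, and Bdnf at 4.14 and 2.46 FPKM, the latter the lowest of all libraries. Δ3102 mouse 3 had the next highest sum, 67.2 FPKM, with 3.53 FPKM of Bdnf. In WT mice 1 to 3 the sums were 61.4, 69.4 and 48.2 FPKM, beside 4.44, 4.95 and 3.68 FPKM of Bdnf. In NG-KO mice 1 to 4 they were 50.5, 26.0, 51.0 and 22.8 FPKM, beside 4.19, 2.70, 3.09 and 2.90 FPKM of Bdnf. The part of these markers in the level of Bdnf was not tested. An antisense gene, Gm45346, shares 896 exonic bases with Bdnf and had 0 to 31 counts per library, against 965 to 2186 for Bdnf.

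Ntf3 (ENSMUSG00000049107, chromosome 6, 126101412 to 126166715, minus strand), the gene of NT-3, fell into high and low libraries that did not follow the genotype. It was at 0.0766 to 0.509 FPKM (8 to 55 counts) in 5 libraries and at 2.12 to 3.70 FPKM (at least 221 counts) in the other 9, with none between. The WT mice had 2.85, 0.165 and 0.260 FPKM, and the Δ3102 mice 2.71, 2.12 and 3.70. The AG-KO mice had 0.0766, 2.84, 2.72 and 0.509 FPKM, and the NG-KO mice 2.59, 0.480, 3.11 and 3.58. Thus 2 WT, 2 AG-KO and 1 NG-KO mice were low and all 3 Δ3102 mice were high, with WT mouse 1 among them. The log2 fold changes against WT were 1.37 ± 1.16 for Δ3102, 0.52 ± 1.08 for AG-KO and 1.16 ± 1.10 for NG-KO mice (SE; edgeR, unadjusted p of 0.261, 0.642 and 0.313). Without WT mouse 1 they became 3.70, 2.85 and 3.49 (unadjusted p of 0.0129, 0.0339 and 0.0150, all adjusted p at least 0.430), so the sign is shared but the size rests on that library. Prox1, a granule cell marker, was at 4.80 to 11.5 FPKM in the 5 libraries with low Ntf3 and at 4.13 to 10.1 FPKM in the 9 with high Ntf3, and the part of granule cell content in the split was not tested.

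Fgf2 (ENSMUSG00000037225, chromosome 3, 37348346 to 37410108, plus strand) encodes basic fibroblast growth factor, which acts on neural stem cells, astrocytes and vessels. Its level split in a like manner within every genotype. WT mice had 1, 644 and 321 counts (0.00134, 1.34 and 0.747 FPKM) and Δ3102 mice had 33, 4 and 198 (0.0736, 0.00818 and 0.538). AG-KO mice had 46, 399, 3 and 468 counts (0.118, 1.07, 0.00779 and 1.10 FPKM), and NG-KO mice had 304, 373, 482 and 1 (0.703, 0.891, 1.25 and 0.00191). In all, 6 libraries were at 0.118 FPKM or lower and 8 at 0.538 or higher, and each genotype held both kinds. The log2 fold changes were -1.75 ± 1.83 for Δ3102, -0.24 ± 1.64 for AG-KO and 0.050 ± 1.65 for NG-KO mice against WT (SE; edgeR, adjusted p of at least 0.967), with standard errors as large as or larger than the changes. High and low libraries of Fgf2 were not those of Ntf3: 1 library was low for both, 4 were high for both and 9 were high for one of them.

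The 3′ end of Fgf2 overlaps Nudt6, transcribed from the opposite strand, over 640 exonic bases. Nudt6 had 13 to 205 counts per library. It was at 0.539 to 1.56 FPKM in the 6 libraries with low Fgf2 and at 0.130 to 1.91 FPKM in the 8 with high Fgf2, so its ranges overlapped. The library protocol marks the strand, but whether the counting used it was not given, so reads of this overlap could be assigned to either gene. Prm2, a gene of sperm chromatin, also varied between libraries from 0.0001 to 41.3 FPKM. It was above 5 FPKM in 6 of the 8 libraries with high Fgf2 and in 1 of the 6 with low Fgf2, a pattern chosen after the values were seen, and its part in the result was not tested.

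Set against all tested genes, Fgf2 and Ntf3 were among the most variable genes between mice of one genotype. The SD within genotype of log2(CPM + 1) was 1.55 for Fgf2 (percentile 99.5 of 18059 genes) and 1.04 for Ntf3 (percentile 98.3), against a median of 0.237. Igf1 stood at percentile 89.8, Ntrk2 at 58.6, Bdnf at 57.5, Ngfr at 48.9 and Vegfa at 41.2. Sort1 (SD of 0.114, percentile 12.8) and Ntrk3 (0.103, percentile 9.24) stood lowest. These percentiles pool genes of all levels, and low counts raise this spread. Among the tested genes of the highest levels (average log2(CPM + 1) of 8.28) the median SD was 0.123. Sort1 was thus near the median of abundant genes, and Ntrk2 (0.270) was above it. Among tested genes around the level of Ngfr (average of 1.70) the median was 0.370 and the 5th percentile 0.224. Ngfr (0.233), with 65 to 171 counts per library, was thus low for its level and varied less than Ntf3.

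**Figure D3:**
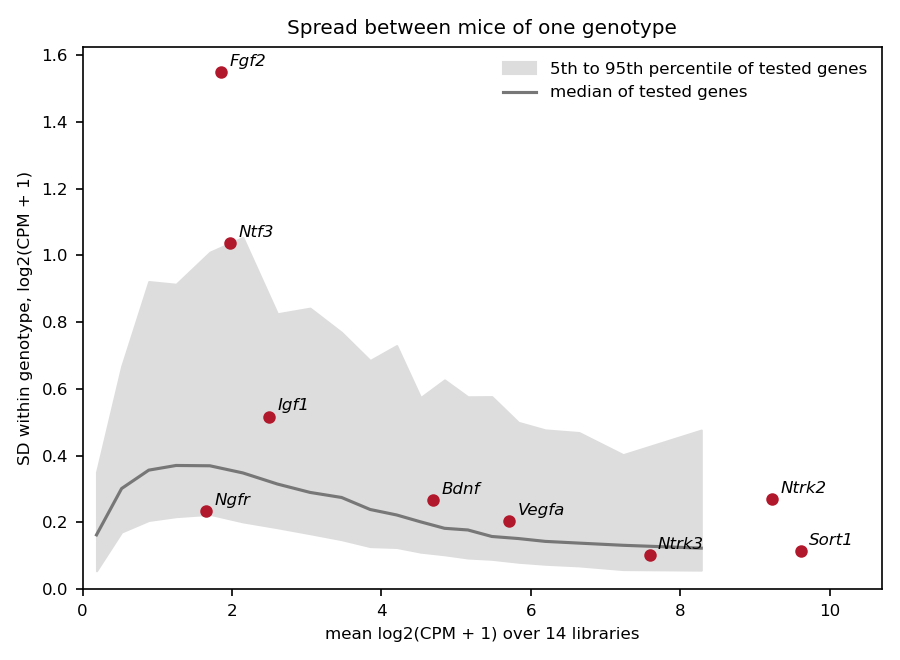
SD within genotype of log2(CPM + 1) (vertical axis) against the mean of log2(CPM + 1) over the 14 libraries (horizontal axis) for the 9 genes (points), with the median and the range from the 5th to the 95th percentile of tested genes in 20 bins of the mean. Fgf2 (1.55) lies above the range and Ntf3 (1.04) at its upper edge, while Ntrk3 (0.103) lies below the median.

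Ngfr (ENSMUSG00000000120, chromosome 11, 95568818 to 95587735, minus strand), the gene of the p75 receptor, separated the conditional lines. AG-KO mice had 0.855, 0.902, 0.872 and 0.723 FPKM (152 to 171 counts), and NG-KO mice had 0.420, 0.517, 0.419 and 0.434 FPKM (82 to 111 counts). The WT mice had 0.615, 0.266 and 0.746 FPKM and the Δ3102 mice 0.423, 0.374 and 0.446. All AG-KO mice were above all NG-KO mice, as in 6.77% of tested genes in either direction, and WT mice spanned the gap between the lines. The log2 fold change between AG-KO and NG-KO mice was 0.91 ± 0.29 (SE), with an unadjusted p of 0.00747 and a Benjamini-Hochberg adjusted p of 0.201 by edgeR. An unadjusted p under 0.05 in this direction was reached by 7.3% of tested genes and in the other direction by 6.84%. Each of the 21 alternatives in which Ngfr was tested kept an unadjusted p under 0.05, and the smallest adjusted p was 0.0827, by DESeq2. With the replicate block the adjusted p was 0.298.

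Against WT, the p75 receptor gene was at a log2 fold change of 0.66 ± 0.31 in AG-KO mice (SE; edgeR, unadjusted p = 0.0547, adjusted p = 0.358), of -0.38 ± 0.33 in Δ3102 mice and of -0.25 ± 0.31 in NG-KO mice. WT mouse 2, the lowest of all 14 libraries, weighed on these values. Without it the change was -0.70 in Δ3102, 0.33 in AG-KO and -0.58 in NG-KO mice. Without WT mouse 3, the highest of the WT mice, it was -0.093, 0.94 and 0.030 in the same order. The unadjusted p was under 0.05 for Δ3102 and NG-KO mice without WT mouse 2 (0.0201 and 0.0368) and for AG-KO mice without WT mouse 3 (0.0184), and no adjusted p was. In the adult brain p75 is known from basal forebrain cholinergic neurons, whose axons reach the hippocampus, and from glia and vessel-associated cells. The oligodendrocyte markers (5 genes, summed FPKM) were at 287 to 540 in AG-KO and at 166 to 269 in NG-KO mice, and at 290 to 670 in WT mice. In WT mice 1 to 3 these sums were 420, 670 and 290, beside 0.615, 0.266 and 0.746 FPKM of Ngfr. The endothelial and mural markers (6 genes) were at 39.9 to 67.0 in AG-KO and 41.5 to 46.3 in NG-KO mice. None of these markers was at 0, and their part in the difference was not tested.

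Ntrk2 (ENSMUSG00000055254, chromosome 13, 58806569 to 59133970, plus strand), the BDNF receptor gene, was at 27.9 to 35.7 FPKM in AG-KO mice. It was at 28.3, 28.5 and 28.0 FPKM in Δ3102 mice and at 18.0, 26.8 and 30.8 in WT mice. The NG-KO mice had 18.5, 32.5, 27.9 and 29.5 FPKM. WT mouse 1 and NG-KO mouse 1 were alone below 20 FPKM, and all genotypes overlapped. The log2 fold changes against WT were 0.17 ± 0.20 for Δ3102, 0.32 ± 0.18 for AG-KO and 0.12 ± 0.18 for NG-KO mice (SE; edgeR, adjusted p of at least 0.437). Without WT mouse 1 the changes of Δ3102 and NG-KO mice were -0.017 and -0.068. The gene has 10 annotated transcripts, 7 of them coding, and the table does not separate full-length from truncated TrkB.

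Ntrk3 (ENSMUSG00000059146, chromosome 7, 78175959 to 78738012, minus strand), the NT-3 receptor gene, varied by a factor of 1.25 between the highest and the lowest of 14 libraries, 6.15 and 4.92 FPKM. Its ligand gene Ntf3 varied by a factor of 48.3 over the same libraries. Means were 5.90 ± 0.380 FPKM in WT (SD, n = 3), 5.48 ± 0.304 in Δ3102 (n = 3), 5.76 ± 0.216 in AG-KO (n = 4) and 5.46 ± 0.378 in NG-KO mice (n = 4). The log2 fold changes against WT were -0.10 ± 0.089, -0.0028 ± 0.083 and -0.098 ± 0.083 (SE). The antisense gene Gm9885 lies within Ntrk3 and shares 0 exonic bases with it.

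Sort1 (ENSMUSG00000068747, chromosome 3, 108284082 to 108361511, plus strand), which encodes sortilin, was at 81.8 to 103 FPKM with 34008 to 49962 counts per library. Means were 87.2 ± 5.25 FPKM in WT, 91.0 ± 1.44 in Δ3102, 94.9 ± 9.18 in AG-KO and 92.2 ± 5.10 in NG-KO mice. The log2 fold changes against WT were 0.065 ± 0.092, 0.15 ± 0.087 and 0.094 ± 0.087 (SE; edgeR, adjusted p of at least 0.433). Without AG-KO mouse 2, the lowest library, the change of AG-KO mice was 0.23 (unadjusted p = 0.00782, adjusted p = 0.136).

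Vegfa (ENSMUSG00000023951, chromosome 17, 46016993 to 46032369, minus strand) encodes a factor that acts on endothelial cells and is made in the brain largely by astrocytes and neurons. AG-KO mice had 10.2, 11.4, 14.1 and 13.7 FPKM and NG-KO mice 10.6, 9.91, 8.54 and 8.53. WT mice had 9.50, 11.0 and 12.6 FPKM and Δ3102 mice 11.6, 9.97 and 8.95. AG-KO and NG-KO mice overlapped only in AG-KO mouse 1 and NG-KO mouse 1. Vegfa was 1.33-fold higher in AG-KO than in NG-KO mice, a log2 fold change of 0.42 ± 0.14 (SE) with an unadjusted p of 0.0105 and an adjusted p of 0.223 by edgeR. The unadjusted p stayed under 0.05 in each of the 22 alternatives, with log2 fold changes of 0.34 to 0.51 and a smallest adjusted p of 0.115. Against WT the changes were 0.20 ± 0.15 in AG-KO, -0.22 ± 0.15 in NG-KO and -0.11 ± 0.16 in Δ3102 mice. The 2 AG-KO libraries with the most Vegfa, mice 3 and 4, also had the most of the endothelial marker Cldn5 (22.6 and 24.8 FPKM, against 13.3 to 15.8 in NG-KO mice), and the part of vessel content in the result was not tested.

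Igf1 (ENSMUSG00000020053, chromosome 10, 87858265 to 87937042, plus strand) encodes insulin-like growth factor 1, which interneurons and microglia can make in the brain and which the liver releases into blood. It was the scarcest of the 9 genes on average. WT mice had 0.369, 0.603 and 0.476 FPKM and Δ3102 mice 0.714, 0.665 and 0.429. AG-KO mice had 0.219, 0.395, 0.333 and 0.592 FPKM and NG-KO mice 0.108, 0.368, 0.499 and 0.450. All genotypes overlapped, and the log2 fold changes against WT were 0.32 ± 0.48, -0.29 ± 0.45 and -0.43 ± 0.45 for Δ3102, AG-KO and NG-KO mice (SE; edgeR, adjusted p of at least 0.813). Transcripts of Alb, a liver gene, were present at 126 to 167 FPKM in WT mice, and the 7 hepatocyte markers summed to 60.9 to 540 FPKM over the 14 libraries. One of these markers, Trf, was at 53.7 to 118 FPKM over the same libraries, so the lowest sum was mostly Trf. Alb was at 161, 189 and 1.11 FPKM in Δ3102 mice 1 to 3, of which mouse 3 had the least Igf1. In AG-KO mice it was at 44.8 FPKM in mouse 1, had 145 counts in mouse 2 and was listed at the floor of 0.0001 FPKM in mice 3 and 4, and Igf1 was lowest in mouse 1. In NG-KO mice it was at 2.00 FPKM in mouse 1, which had the least Igf1 of all libraries, and at 41.7 to 55.8 FPKM in the others. The part of liver transcripts in the level of Igf1 was not tested.

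The share of genes whose genotypes do not overlap sets a background for these separations. Of the 9 genes, 1 (Bdnf, lower) separated Δ3102 from WT mice, where 11.5% of tested genes did in either direction. None separated AG-KO from WT mice by FPKM (13.3% of tested genes) or NG-KO from WT mice (10.9%), and 1 (Ngfr, higher) separated AG-KO from NG-KO mice (6.77%). By CPM in place of FPKM, a choice added after the data were seen, Ngfr also separated AG-KO from WT mice.

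The genes through which these factors act were examined in 9 lists with 191 genes in the table, of which 173 were tested, the 9 genes included. The lists cover ligands and processing (13 tested), receptors and sorting receptors (10), adaptors and kinases of Trk signaling (42), partners of p75 (18), the IGF (12), VEGF (13) and FGF (24) systems, other neurotrophic factors (21), and genes induced by neuronal activity or BDNF (20). By edgeR, 0 of 173 passed an adjusted p of 0.05 in each of the 4 comparisons. In the order used above, DESeq2 called 0, 3, 0 and 9 of them, where it called 0.161%, 2.36%, 0.916% and 2.43% of all genes, and limma called 0 in each, against 0.0111%, 0.0277%, 0.0831% and 0.133% of all genes. At an unadjusted p under 0.05, edgeR gave 8, 35, 10 and 42 genes. The lists were chosen with earlier results of these data known, so their shares beside those of all tested genes are a description, not a test.

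In AG-KO against WT mice, 31 of the 173 genes (17.9%) were higher and 4 lower at an unadjusted p under 0.05, where 6.65% of all tested genes were higher and 7.74% lower. The list median was 0.16 on the log2 scale, against -0.014 over all tested genes. Tissue markers also differed. The summed level of 8 markers of neocortex, thalamus and striatum was 27.3 to 32.4 FPKM in AG-KO mice. It was 24.3 to 26.0 in WT, 25.9 to 27.9 in Δ3102 and 22.8 to 26.0 in NG-KO mice. The 6 dentate markers summed to 27.9 to 47.9 FPKM in AG-KO and 48.2 to 69.4 in WT mice. The part of tissue content in the list results of AG-KO mice was not tested. Of the activity-induced genes, 7 of 20 were higher and 0 lower, 19 of 20 had a fold change above 1 and the median log2 fold change was 0.55. Npas4, a neuron-specific activity-dependent factor, was at 5.86, 4.82, 3.57 and 4.80 FPKM in AG-KO mice and at 1.73, 2.32 and 1.40 in WT mice, without overlap (log2 fold change 1.41 ± 0.26, SE; edgeR, adjusted p = 0.102). Fos, another immediate early gene, was at 11.0, 12.4, 4.70 and 3.34 FPKM in AG-KO mice and at 2.75, 3.52 and 3.96 in WT mice, with AG-KO mouse 4 inside the WT range (1.22 ± 0.39, adjusted p = 0.208). Bdnf, whose transcription also follows activity, was not higher in AG-KO than in WT mice in mean FPKM (3.58 ± 0.928 and 4.36 ± 0.642, SD).

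Among the Trk adaptors and kinases, 10 of 42 were higher and 1 lower in AG-KO against WT mice at this unadjusted threshold. Shc3, a neuronal adaptor of Trk receptors, was at 4.01, 4.12, 7.28 and 7.84 FPKM in AG-KO and at 2.73, 2.37 and 3.43 in WT mice (log2 fold change 1.07 ± 0.25, SE; edgeR, adjusted p = 0.131). Pik3ca, a catalytic subunit of PI3 kinase, was at 3.50 to 3.81 FPKM in AG-KO and 2.32 to 2.40 in WT mice (0.64 ± 0.18, adjusted p = 0.179). Both were also called by DESeq2, with Npas4 as the other list gene. Of the receptors, Sorcs2, a sorting receptor that works with p75, was at 8.54 ± 0.870 FPKM in AG-KO and 6.97 ± 0.358 in WT mice (SD, n = 4 and 3, without overlap).

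In AG-KO against WT mice, 2 of 13 genes of the VEGF system (both higher) and 6 of 24 of the FGF system (5 higher and 1 lower) had an unadjusted p under 0.05, where 14.4% of all tested genes did, and none passed an adjusted p of 0.05. Flt1 and Kdr, endothelial receptors of VEGF, had log2 fold changes of 0.42 ± 0.14 and 0.51 ± 0.23 against WT mice (SE; edgeR, adjusted p of 0.209 and 0.341). Both overlapped WT mice. Kdr was at 1.76, 1.93, 2.71 and 3.74 FPKM in AG-KO mice and at 1.61 to 2.01 in WT mice. AG-KO mice 3 and 4 also had the most Cldn5, and the part of vessel content was not tested. Etv5, a transcription factor induced by FGF signaling, had a log2 fold change of 0.48 ± 0.16, and Fgfr1, a receptor of Fgf2, of 0.31 ± 0.10 (edgeR, adjusted p of 0.209 and 0.213). For each of these 2 genes, all AG-KO mice were above all WT mice. Gpc4, a heparan sulfate proteoglycan of the cell surface, was the lower one at -0.40 ± 0.17, with all AG-KO mice below all WT mice (adjusted p = 0.313). Of the processing genes, Pcsk2 was at 0.19 ± 0.085 and Cpe at -0.11 ± 0.052. Of the other neurotrophic receptors, Alk was at 0.63 ± 0.26 and Ret at 0.95 ± 0.41, and of the p75 partners, Bex1 was at -0.46 ± 0.17 and Arhgdia at 0.17 ± 0.069. No IGF gene reached an unadjusted p of 0.05 in this comparison.

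**Figure D4:**
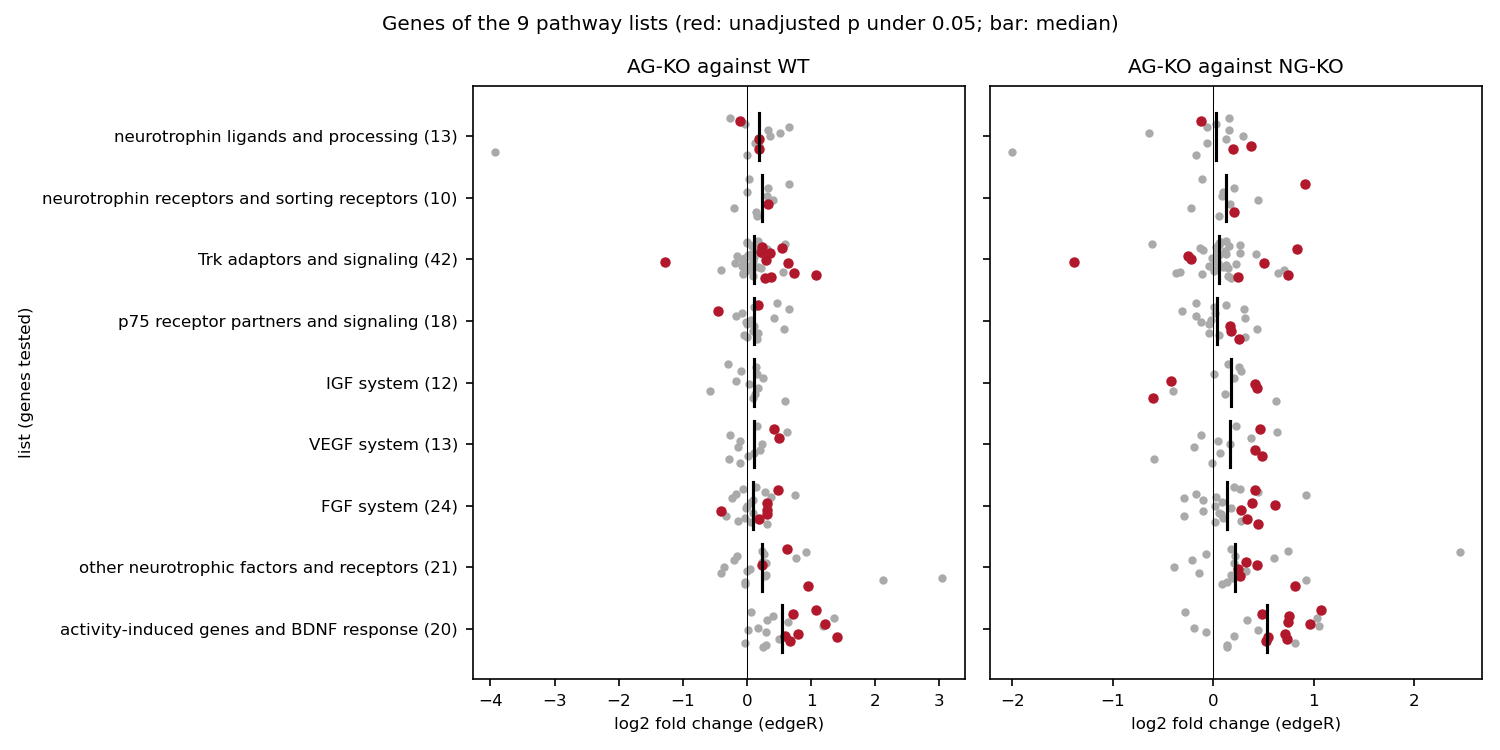
Log2 fold change (horizontal axis) of each tested gene of the 9 lists (rows, with the number of genes) in AG-KO against WT (left) and AG-KO against NG-KO mice (right), with genes at an unadjusted p under 0.05 in red and a bar at the median of each list. The medians of the activity-induced genes, 0.55 and 0.53, lie furthest to the right, and no gene passes an adjusted p of 0.05.

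Between AG-KO and NG-KO mice, 42 of the 173 list genes differed, 36 of them higher in AG-KO mice and 6 lower, at an unadjusted p under 0.05, with a median of 0.14. Of all tested genes, 7.3% were higher and 6.84% lower at this threshold. As a share of the list, the activity-induced genes again held the most, 9 of 20, all higher. Nptx2, a synaptic pentraxin, was at 16.1 ± 5.11 FPKM in AG-KO and 9.68 ± 2.01 in NG-KO mice, and Egr1, an immediate early gene, at 33.7 ± 13.7 and 20.1 ± 2.60 (SD, n = 4; edgeR, adjusted p of 0.182 and 0.198). Both overlapped between the lines: their lowest AG-KO values were 10.4 and 18.3 FPKM, and their highest NG-KO values 11.6 and 22.6. Arc, another activity-induced gene, was at 71.6, 74.8, 53.3 and 17.3 FPKM in AG-KO and at 16.3 to 34.5 in NG-KO mice. For Arc, AG-KO mouse 4 was thus inside the NG-KO range. The FGF system had 6 of 24 genes, all higher, led by Spred2 (0.34 ± 0.080) and Fgfr1 (0.39 ± 0.094), and the VEGF system 3 of 13, Flt1 (0.47 ± 0.13), Vegfa and Vegfc. Il6st, a shared receptor of neurotrophic cytokines, was at 8.05 to 11.0 FPKM in AG-KO and 6.82 to 7.42 in NG-KO mice (0.44 ± 0.097, adjusted p = 0.111). Gfra2, a receptor of neurturin, was at 0.32 ± 0.11. Of the IGF genes, Igfbp5, which binds IGF, was at 0.43 ± 0.11 and Insr, the insulin receptor, at -0.60 ± 0.23.

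Of the Trk adaptors and kinases, 4 of 42 were higher and 3 lower in AG-KO than in NG-KO mice at an unadjusted p under 0.05, near the 7.3% and 6.84% of all tested genes. Gab1, a docking protein, was at 0.84 ± 0.24. Nras, a small GTPase of the Ras family, was at 5.17, 1.27, 2.17 and 1.83 FPKM in AG-KO mice and at 7.00, 7.08, 6.33 and 6.97 in NG-KO mice, without overlap (log2 fold change -1.38 ± 0.40, SE; edgeR, adjusted p = 0.176). In Δ3102 mice Nras was at 4.22, 1.97 and 6.45 FPKM and in WT mice at 6.37, 4.50 and 8.48. Of the p75 partners, Traf6 (0.26 ± 0.095) was above all NG-KO mice in every AG-KO mouse. Sorl1, a sorting receptor, was at 0.20 ± 0.078, Pcsk6, a convertase of precursors, at 0.37 ± 0.13 and Cpe, which sorts BDNF, at -0.12 ± 0.048.

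In Δ3102 against WT mice 8 of the 173 genes passed the unadjusted threshold, 4 in each direction, a share of 4.62% where 2.18% of all tested genes were higher and 2.27% lower. Igfbp7, an IGF-binding protein of vessels, was at 19.2, 18.5 and 16.9 FPKM in Δ3102 mice and at 10.5, 12.6 and 14.9 in WT mice (0.53 ± 0.13, SE; edgeR, adjusted p = 0.897). Spry1, an inhibitor of FGF signaling, was at 0.903, 0.943 and 2.87 FPKM in Δ3102 mice and at 4.63, 3.30 and 3.53 in WT mice (-1.28 ± 0.36). Both separated the genotypes without overlap. Map2k2, a MAP kinase kinase, was at 0.21 ± 0.068 and Pik3ca at 0.44 ± 0.19, while Bex3, a partner of p75, was at -0.29 ± 0.12. Ptn, the growth factor pleiotrophin, was at -0.23 ± 0.092 and the receptor gene Alk at 0.62 ± 0.28.

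In NG-KO against WT mice 10 of the 173 genes passed the unadjusted threshold, 6 higher and 4 lower, where 4.33% of all tested genes were higher and 4.83% lower. Frs3 and Sh2b2, adaptors of Trk receptors, were at 0.68 ± 0.20 and 0.90 ± 0.32, each without overlap (SE; edgeR, adjusted p of 0.338 and 0.423). Npas4 was at 0.86 ± 0.25 with overlap. Insr was at 0.69 ± 0.25, Igfbp5 at -0.26 ± 0.11, Vegfc, a factor of lymphatic and blood vessels, at -0.48 ± 0.21 and Etv4, a target of FGF signaling, at -0.33 ± 0.15.

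The genes most like each member over the 14 libraries were ranked by Pearson r of log2(CPM + 1) among 11809 genes, as a description. Sort1 was followed most closely by Fry (r = 0.92, Spearman rho = 0.93), Arhgef17 (0.92 and 0.89) and Zyg11b (0.91 and 0.95). Ntrk3 was followed by Grin2b (0.89 and 0.87), Rbm25 (0.89 and 0.78) and Smc3 (0.89 and 0.84), and Bdnf by Zfp871 (0.88 and 0.93), Ivns1abp (0.86 and 0.81) and Sfpq (0.83 and 0.79). For Ngfr the closest were Scaf8 (0.85 and 0.84), Fgd5 (0.84 and 0.90) and Irf2bp2 (0.83 and 0.83), and for Vegfa Ddah1 (0.90 and 0.89), Dok3 (0.88 and 0.86) and Eef2 (0.87 and 0.84). Igf1 was closest to Tfap4 (0.87 and 0.66), Alpl (0.85 and 0.75) and Pak3 (0.83 and 0.37), and Ntrk2 to Rac1 (0.90 and 0.32), Sertad4 (0.86 and 0.20) and Agtrap (0.84 and 0.67). Ntf3 was closest to Thap11 (0.86 and 0.74), Snd1 (0.80 and 0.80) and Tspyl1 (0.80 and 0.53), and Fgf2 to Lrrc75b (0.86 and 0.85), Arpc5 (0.84 and 0.77) and Cstf1 (0.78 and 0.74). Ngfr, Fgf2 and Igf1, with means under 1 FPKM, were not among the genes searched and so could not appear as a closest gene. None of the other members was among the 3 closest genes of another member, and the points share their library preparation and depth.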

How the data were processed

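Hippocampal poly(A) RNA of female C57BL/6J mice was sequenced in 14 libraries, each taken as 1 mouse. Reads were trimmed, mapped to GRCm38 and assembled by the authors, and the submitters' processing notes name cutadapt 1.9, HISAT2 2.0.4, UMI-tools, StringTie 1.3.4d, DESeq2 and edgeR. The deposited FPKM values were calculated by the authors with StringTie, with 0.0001 for genes without signal. The deposited count values are whole numbers without normalization, and the program and the strand setting used for counting were not given in the sources used here. The table holds no column of fold changes or p-values, and 0 columns were left unmapped.

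The tests took in genes that reached 0.5 FPKM in 3 or more libraries, 18059 of 55450 genes and at least 99.6% of the counts of every library (44527024 to 62669865). A single model (edgeR 4.0.16, R 4.3.3, TMM scaling, 1 mean for each of the 4 genotypes) took the counts of the 14 libraries (quasi-likelihood test, two-sided). Adjusted p is Benjamini-Hochberg over all tested genes. A log2 FPKM test had been planned as the main one only for a table without counts. DESeq2 1.42.0, limma 3.58.1 on log2(FPKM + 0.1) and log2(FPKM + 1), median-ratio scaling, a filter at 1 FPKM, omission of the filter, a replicate block, fits of only the 2 groups compared and fits without each library were alternatives. TMM-scaled CPM in place of FPKM was added after the data were seen. The procedure was tested on simulated data. No 2 libraries were identical (91 pairs, 0 identical).

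All 9 genes were described. Of 9 pathway lists, the text names for each comparison up to 2 genes per list with the smallest unadjusted p under 0.05, and any others it names were chosen after their values were seen. The members and lists were chosen with earlier results of these data known. The 3 genes most like each member were ranked by Pearson r over 14 libraries among tested genes with a mean FPKM of at least 1. Gene coordinates come from the deposited table and GENCODE vM21, and promoter sequences from RefSeq (GRCm38.p6). Mice of different genotypes were not treated as pairs: of 19 pairs of same-numbered libraries, 3 had deviations correlated above 0.1 (range -0.22 to 0.18). Plots were drawn with matplotlib 3.10.9 and tables with pandas 2.3.3 (Python 3.11.15, NumPy 2.4.6). Some items are not reported here.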

Additional observations from a re-analysis of the deposited data

Results flagged for a closer look

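Ngfr in NG-KO mouse 2 was at 0.517 FPKM, while the other 3 NG-KO mice were at 0.419 to 0.434. Its gap to the nearest of them was 0.851 of the range of the group, above Dixon's 95% critical value for groups of 4. Chance gives such a value in about 1 in 20 groups, and 18 groups of 4 mice were tested. The library remained below all AG-KO mice (0.723 to 0.902 FPKM). Without NG-KO mouse 2 the log2 fold change between AG-KO and NG-KO mice was 0.99 (edgeR, unadjusted p = 0.0102, adjusted p = 0.294), against 0.91 with it.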

How the results depend on the processing

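No member passed an adjusted p of 0.05 in the 4 comparisons under the 22 alternatives. Of the 36 log2 fold changes of members, 28 kept their direction under every alternative in which they were computed. For AG-KO against WT mice, Ntrk3 turned to 0.0024 with median-ratio scaling and with DESeq2, 0.0015 with the stricter filter and 0.015 with the replicate block, and ranged from -0.065 to 0.038 without single libraries. Fgf2 turned to 0.15 with the replicate block and ranged from -0.82 to 0.67 without single libraries, from -0.53 to 0.96 for NG-KO against WT and from -0.84 to 0.13 for AG-KO against NG-KO mice. Without single libraries, Ntrk2 ranged from -0.017 to 0.33 for Δ3102 and from -0.068 to 0.27 for NG-KO against WT, Ngfr from -0.58 to 0.030 for NG-KO against WT, and Igf1 from -0.16 to 0.35 for AG-KO against NG-KO mice.

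The count of members at an unadjusted p under 0.05 for Δ3102 against WT was 1 in the fit of the 2 groups compared (Bdnf) and 0 to 1 without single libraries. For AG-KO against WT it was 1 with DESeq2 and with limma at either pseudocount (Ngfr) and 0 to 2 without single libraries, and for NG-KO against WT 0 to 1 without single libraries. For AG-KO against NG-KO it was 1 with the stricter filter, which removed Ngfr. With CPM in place of FPKM, 1 member (Ngfr) separated AG-KO from WT mice. Pathway genes at an unadjusted p under 0.05 for NG-KO against WT were 17 in the fit of the 2 groups, 16 with DESeq2 and 6 to 15 without single libraries, the lowest without WT mouse 2. With the replicate block, 0, 0, 0 and 2 members passed the unadjusted threshold, as without it, and pathway genes numbered 10, 28, 8 and 37. The mice share only a replicate number. At 8 to 55 counts the low libraries of Ntf3 are well above 0, whereas 1 to 4 counts of Fgf2 leave its lowest levels uncertain by counting error alone, and with 3 or 4 mice per genotype smaller differences than those given could be missed. Leaving out a library removes 1 of 3 or 4 mice of a genotype.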
